A study of Mus musculus with 121 samples.

Results

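Translation initiation and elongation factors were followed in the RNA of mouse erythroid cells from which the transcription factor YY1 was removed. The members were all gene symbols beginning with Eif or Eef, leaving out those marked as pseudogenes by -ps. The 3 count tables together held 97 such symbols among 60430 gene symbols. The RNA-seq time series listed 90 of them and 72 had enough counts to be tested, among 15157 genes tested in all. The table of untreated lines listed 67, of which 62 were tested among 10892 genes, and the nascent RNA table listed 73, of which 64 were tested among 11218 genes.

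Translation begins when eIF2 delivers the initiator tRNA to the small ribosomal subunit, which eIF3, eIF1 and eIF1A hold ready for scanning. The complex eIF4F binds the mRNA cap through eIF4E, with eIF4G as scaffold and eIF4A as helicase, and 4E-binding proteins hold eIF4E back. The exchange factor eIF2B recharges eIF2 with GTP, and kinases that phosphorylate eIF2 block that step under stress. During elongation eEF1A brings aminoacyl tRNAs to the ribosome, the eEF1B subunits recharge eEF1A, and eEF2 moves the ribosome along. In erythroid cells the heme-regulated eIF2 kinase, encoded by Eif2ak1, is known for matching globin synthesis to heme supply.

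All cells were G1E-ER4 cells, an erythroblast line derived from mouse embryonic stem cells that lack functional GATA1 and carry a hormone-activated form of it. The sample titles of the time series and of TT-seq call the cells asynchronous, and those of the untreated lines do not say. In the YY1-AID subline YY1 carries a degron that leads to its breakdown once auxin is added. RNA-seq of that subline covered 4, 24 and 48 h of auxin and 0 h as the baseline, with 3 libraries each. TT-seq reads mostly new transcripts, which had taken up 4-thiouridine (500 µM) over 5 min. It compared the YY1-AID subline after 4 h of auxin with untreated cells of that subline (3 libraries each). A separate RNA-seq table held untreated cells of the YY1-AID subline, of another line called YY1-AID subline3, and of the parental cells (2 libraries each). No RNA library of parental cells given auxin was analysed here, so effects of auxin itself and of YY1 loss cannot be told apart. Replicates are numbered without a statement that they are separate cultures, so p-values measure the spread between these libraries, part of which may be technical.

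Total gene counts per library were 25.1 to 26.2 M in the time series, 35.2 to 44.9 M in the untreated lines and 30.2 to 53.5 M in TT-seq. Of 17 erythroid marker genes 15 were listed in the time series, and all 15 averaged a CPM (counts scaled to one library size) of at least 1. Their summed level lay between 3419 and 4951 CPM in every library. No myeloid, lymphoid or pluripotency marker reached 1 CPM on average. Of 6 megakaryocyte markers 3 did, and the summed level of the list was 38.3 to 52.4 CPM at 0 h, 41.8 to 51.0 at 4 h, 103 to 142 at 24 h and 210 to 248.7 at 48 h, mostly from Itga2b, while Gp1bb was at 0 and Ppbp at or near 0 in every library. The 4 mast cell markers summed to 36.1 to 59.4 CPM at 0 h, 39.3 to 58.7 at 4 h, 58.7 to 85.6 at 24 h and 62.9 to 75.9 at 48 h, nearly all from Cpa3. The part of these shifts in the results below was not tested. Yy1 mRNA had a log2 fold change of 0.11 ± 0.09 (SE) at 4 h and was not called, which does not check a protein removed after translation.

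Levels below are CPM after normalisation of each library by trimmed mean of M values, and changes are log2 fold changes with their standard error, SE, against 0 h or untreated cells. A change was called when the adjusted p of edgeR's quasi-likelihood test, by Benjamini-Hochberg over all genes tested, was under 0.05. These are shares of each library, and in bulk RNA fewer cells of a type and less RNA per cell cannot be told apart.

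At 4 h of auxin 5 of the 72 members tested were lower and 0 were higher. Over all genes tested, 4.14% were lower and 3.14% higher, so the share of members called by edgeR was near the background. DESeq2, a second tool, called 9 members lower and 0 higher, against 6.93% lower and 4.39% higher of all genes. An unadjusted p of edgeR under 0.05, in either direction, was found for 21 members and for 3281 of all 15157 genes. The median log2 fold change was −0.05 for members and 0.01 for all genes. The 5 lower members were Eef2kmt, Eif1ax, Eif4g2, Eif4g3 and Eif2ak4, and each of them was also lower at 24 h and at 48 h.

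Eef2kmt, the enzyme that methylates a lysine of eEF2, fell furthest among the members. It had 17.0, 17.7 and 17.2 CPM at 4 h, 6.51, 5.79 and 7.95 at 24 h and 6.48, 4.97 and 6.30 at 48 h, against 29.8, 27.9 and 28.3 at 0 h. All auxin libraries lay below all 0 h libraries, and the 24 h and 48 h libraries below those of 4 h. Its log2 fold change was −0.73 ± 0.12 at 4 h (edgeR, adjusted p = 0.00273), −2.08 ± 0.12 at 24 h and −2.27 ± 0.13 at 48 h.

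Eif1ax, the X-linked gene of eIF1A, which steers scanning and start codon choice, had 161, 178 and 168 CPM at 4 h, 101, 105 and 87.5 at 24 h and 85.1, 81.5 and 79.7 at 48 h, against 202, 216 and 224 at 0 h. Its log2 fold change was −0.34 ± 0.07 at 4 h, −1.13 ± 0.07 at 24 h and −1.38 ± 0.07 at 48 h. The groups did not overlap at any of these times. The closely related Eif1a, whose reads may be divided uncertainly with Eif1ax, was not called at 4 h and fell by 0.70 at 24 h and by 0.81 at 48 h on the log2 scale.

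The eIF4G relatives Eif4g2 and Eif4g3 were lower at 4 h as well. Eif4g2, an eIF4G relative that lacks the eIF4E-binding part and serves cap-independent initiation, had 1398, 1369 and 1322 CPM at 4 h against 1708, 1666 and 1745 at 0 h. Its log2 fold change was −0.32 ± 0.06 at 4 h, −0.68 ± 0.06 at 24 h and −0.67 ± 0.06 at 48 h. Eif4g3, a second scaffold of eIF4F, changed by −0.25 ± 0.06, −0.41 ± 0.06 and −0.20 ± 0.06 at the same times, and its 48 h libraries (145, 157 and 164 CPM) lay above its 24 h libraries (137, 139 and 127 CPM). Eif2ak4 encodes GCN2, the eIF2 kinase that senses amino acid shortage. It had 39.7, 46.4 and 39.9 CPM at 4 h against 63.6, 50.5 and 51.5 at 0 h, a log2 fold change of −0.40 ± 0.11 (edgeR, adjusted p = 0.0472). With any one of 0 h replicate 1, 0 h replicate 2 or 4 h replicate 3 left out, 3 members were called. Of all genes 3.15%, 2.65% and 2.77% were then lower. The call of Eif2ak4 ended without any 1 of the 3 libraries of 0 h, or without replicate 1 or 3 of 4 h, and that of Eif4g3 without replicate 1 or 2 of 0 h or replicate 2 or 3 of 4 h. At 48 h the call of Eif4g3 ended without 48 h replicate 1.

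**Figure D1:**
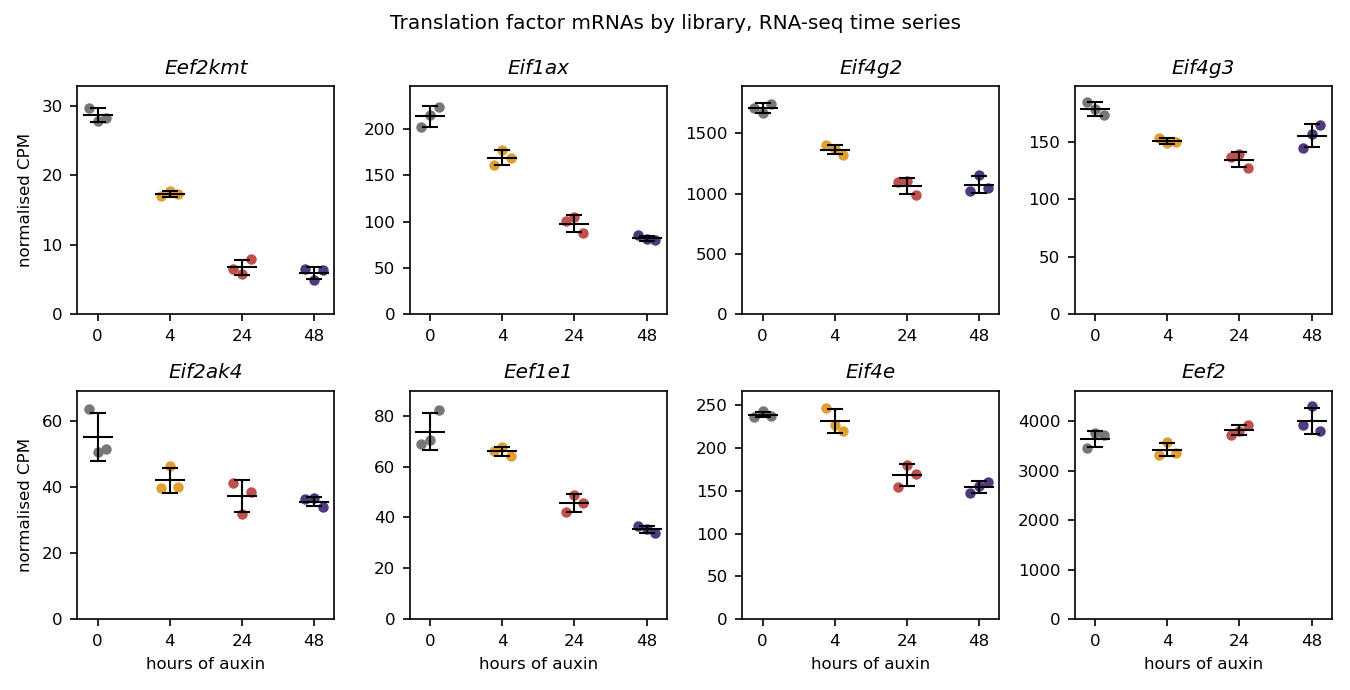
Normalised CPM (vertical axes, each from 0) of 8 translation factor mRNAs against hours of auxin (horizontal axes) in the RNA-seq time series. Points are the 3 libraries of each time and bars their mean ± SD. Eef2kmt and Eif1ax step down by 4 h and again by 24 h, Eef1e1 and Eif4e are lower at 24 h and 48 h, and the 48 h libraries of Eef2 (3791 to 4298 CPM) lie above those of 0 h (3453 to 3748 CPM).

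In nascent RNA Eef2kmt and Eif1ax were again lower, together with Eif3e. In TT-seq 3 of the 64 members tested were lower after 4 h of auxin and 0 were higher. Of all genes tested 7.09% were lower and 2.11% higher. DESeq2 called 6 members lower and 0 higher, against 8.99% lower and 3.16% higher of all genes. An unadjusted p of edgeR under 0.05, in either direction, was found for 13 members and for 2671 of all 11218 genes. The median log2 fold change was −0.09 for members and 0.02 for all genes. Eef2kmt had 5.95, 3.87 and 4.92 CPM with auxin against 10.4, 9.70 and 10.7 in untreated cells, a log2 fold change of −1.08 ± 0.17 (edgeR, adjusted p = 0.00582). Eif1ax had 48.6, 33.6 and 42.4 CPM with auxin against 77.0, 55.9 and 66.6 in untreated cells, a change of −0.68 ± 0.16. Eif3e, a subunit of the eIF3 scaffold of the small ribosomal subunit, had 163, 155 and 151 CPM with auxin against 218, 203 and 206 in untreated cells, a change of −0.42 ± 0.08. For all 3 genes every auxin library lay below every untreated library, which adds no support because they were picked by their calls. Eif3e was not called in RNA-seq at 4 h (−0.10 ± 0.05) and was lower at 24 h (−0.50 ± 0.05) and 48 h (−0.65 ± 0.05).

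The TT-seq libraries of the same replicate number deviated together (correlations of 0.402 to 0.657 across genes, against at most −0.0916 for different numbers), so they were also fitted as pairs. With the pairs, 30 of 64 members were lower and 5 higher, where 25.3% of all genes tested were lower and 22.7% higher. Besides the 3 above, the lowest were Eif4g2 (−0.61 ± 0.04), Eif2b1 of the exchange factor (−0.45 ± 0.06), Eif5, which triggers GTP hydrolysis by eIF2 (−0.36 ± 0.04), Eif4g3 (−0.35 ± 0.04) and Eif1a (−0.35 ± 0.04). The 5 higher were Eef1akmt3, a methyltransferase of eEF1A (0.73 ± 0.24), Eif2ak3 and Eif2ak2, the eIF2 kinases PERK and PKR (0.18 ± 0.04 and 0.18 ± 0.05), Eif4e2, a cap-binding relative of eIF4E (0.17 ± 0.04), and Eif2b3 (0.12 ± 0.04). Eif2ak4 had 56.8, 62.8 and 64.0 CPM with auxin against 63.9, 61.7 and 68.4 in untreated cells, its groups overlapped, and it was called neither with nor without the pairs.

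The number of members called in TT-seq without the pairs rests on single libraries and on the scaling. Without auxin replicate 3, untreated replicate 1 or untreated replicate 3 only 1 member was lower, Eif1ax losing its call in each case and also without auxin replicate 2, and Eif3e in each of the first 3 cases. Of all genes 3.41%, 4.90% and 3.34% were lower in those first 3 cases. With library sizes from the Drosophila spike-in 0 members were lower, where 0% of all genes were lower and 0.00891% higher. With the spike-in and the pairs together 22 members were lower and 1 higher, where 21.5% of all genes were lower and 10.1% higher. The libraries numbered 1 had 38.8% (auxin) and 35.4% (untreated) of their counts on the ribosomal RNA precursor Rn45s, against 22.2% to 26.9% in the other 4.

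Nascent and steady-state changes at 4 h came from separate libraries. Across the 62 members tested in both, Pearson's r was 0.82 and Spearman's rho 0.70, and 49 had the same sign. Across the 10110 genes tested in both, r was 0.57 and rho 0.63. These are descriptions across genes that share libraries and are not independent replicates. At the lower end of both stood Eef2kmt and Eif1ax, which were called in both, and Eif4g2, called in RNA-seq and in TT-seq with the pairs. At the upper end stood Eef1akmt3, at 0.75 ± 0.24 in RNA-seq and 0.73 ± 0.21 in TT-seq, called in neither without the pairs and singled out after its values were seen.

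**Figure D2:**
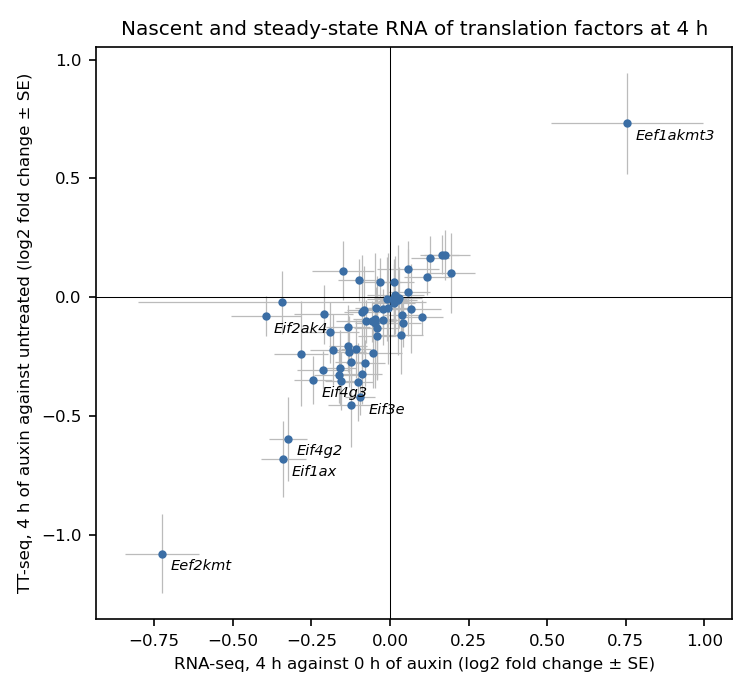
Log2 fold change after 4 h of auxin in TT-seq (vertical axis, against untreated cells) and in RNA-seq (horizontal axis, against 0 h). Each point is 1 of 62 translation factors and lines are ± SE. Eef2kmt lies at the lower left at −0.73 in RNA-seq and −1.08 in TT-seq, and most others lie close to 0 on both axes.

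By 24 h of auxin most translation factor mRNAs were lower, by modest amounts. Of 72 tested, 43 (59.7%) were lower and 7 (9.72%) higher, against 21.5% lower and 21.5% higher among all genes tested. At 48 h 46 (63.9%) were lower and 8 (11.1%) higher, against 24.6% lower and 24.9% higher among all genes. The median log2 fold change of members was −0.28 at 24 h and −0.39 at 48 h, while that of all genes was 0.03 at both times. Few of the falls were large: 3 members fell by more than 1 on the log2 scale at 48 h (Eef2kmt, Eif1ax and Eef1e1). Without 0 h replicate 1 or without 0 h replicate 2 the number higher at 24 h was 4, and without 0 h replicate 1 the number higher at 48 h was 5. The share of all genes higher was 18.2% in each of these runs at 24 h and 21.6% at 48 h.

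Most changes appeared between 4 and 24 h. From 4 h to 24 h, 41 members were lower and 6 higher, against 17.7% lower and 15.9% higher of all genes. From 24 h to 48 h 4 were lower and 0 higher, against 2.84% and 3.03% of all genes. DESeq2 gave 8 lower and 1 higher, against 4.55% and 5.15% of all genes. An unadjusted p of edgeR under 0.05, in either direction, was found for 26 members and for 3036 of all 15157 genes. Over the 3 times, 5 members were lower throughout, 37 were lower at 24 h and 48 h but not called at 4 h, and 16 were never called. The counts of all members together were 3.38 ± 0.09% of a library at 0 h, 3.32 ± 0.03% at 4 h, 3.25 ± 0.08% at 24 h and 3.15 ± 0.07% at 48 h (SD, n = 3 each).

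**Figure D3:**
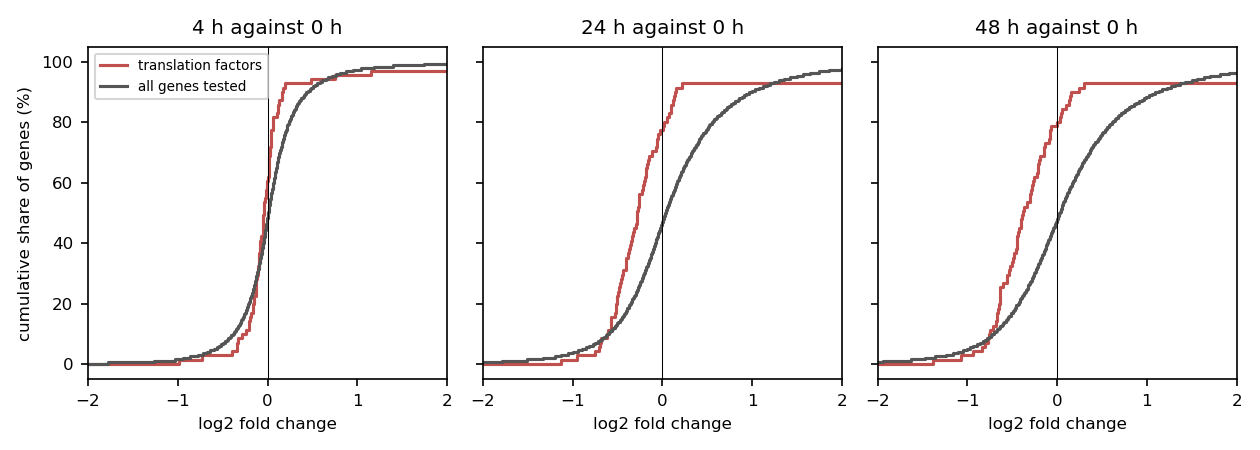
Cumulative share of genes (vertical axis, percent) by log2 fold change against 0 h (horizontal axis) at 4, 24 and 48 h of auxin in RNA-seq, for the 72 translation factors tested and all 15157 genes tested. At 24 and 48 h the translation factor curve lies left of that of all genes through its middle, with medians of −0.28 and −0.39 against 0.03, and it ends in a few members beyond the right edge, the Eif1ad copies.

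Factors that start scanning and carry the initiator tRNA were mostly lower. Of 12 tested in this group, 9 were lower and 1 higher at 24 h, and 9 were lower at 48 h, the others not being called. All 3 subunits of eIF2 tested were lower at both times. Eif2s3x, the gamma subunit that binds GTP and tRNA, had 303, 325 and 322 CPM at 48 h against 520, 510 and 523 at 0 h, changes of −0.52 ± 0.05 at 24 h and −0.71 ± 0.05 at 48 h. Eif2s1, the alpha subunit phosphorylated by the eIF2 kinases, changed by −0.21 ± 0.07 and −0.37 ± 0.07, and Eif2s2, the beta subunit, by −0.16 ± 0.06 and −0.30 ± 0.06. The call of Eif2s2 at 24 h ended without any 1 of 0 h replicates 2 and 3 and the 3 libraries of 24 h, and that of Eif2s1 without 0 h replicate 3 or 24 h replicate 1. Eif2s3y, the Y-linked relative of Eif2s3x, had too few counts to be tested. Eif2d, which can deliver tRNA without eIF2, was higher at 24 h (0.22 ± 0.06), a call lost without 0 h replicate 1 or 2, and was not called at 48 h (0.10 ± 0.06). Eif1, which guards start codon choice, had −0.05 ± 0.07 and −0.00 ± 0.07 and was called at neither time.

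The 5 subunits of eIF2B were all lower at 24 h and at 48 h. Eif2b1, the alpha subunit, which bridges the complex, was lowest, with 58.2, 62.2 and 57.2 CPM at 24 h and 50.2, 56.9 and 47.98 at 48 h, against 103, 98.5 and 95.9 at 0 h. Its changes were −0.74 ± 0.07 and −0.94 ± 0.08, and its groups did not overlap. Eif2b4 changed by −0.46 ± 0.09 and −0.63 ± 0.09, Eif2b2 by −0.28 ± 0.07 and −0.50 ± 0.07, and Eif2b5, the catalytic subunit, by −0.27 ± 0.06 and −0.43 ± 0.06. Eif2b3 was just inside the threshold at 24 h (−0.26 ± 0.10) and was not called there without 0 h replicate 1 or 3 or 24 h replicate 1 or 3. At 48 h it was lower by −0.45 ± 0.10.

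The 4 eIF2 kinases did not move together. Eif2ak4 was lower at 24 h (−0.57 ± 0.11) and 48 h (−0.63 ± 0.11). Eif2ak3, which encodes PERK, the kinase of the endoplasmic reticulum, was not called at 24 h (0.12 ± 0.08) and was higher at 48 h (0.30 ± 0.08), with 28.4, 29.1 and 31.1 CPM against 23.9, 23.9 and 24.1 at 0 h. Eif2ak2, which encodes the kinase PKR that binds double-stranded RNA, was higher by 0.15 ± 0.06 at both times with an adjusted p of edgeR of 0.0469 and 0.0418. Leaving out any 1 of the 6 libraries compared ended that call at 24 h and likewise at 48 h. Eif2ak1, the heme-regulated kinase, had 93.8, 105 and 93.8 CPM at 48 h against 87.9, 96.7 and 102 at 0 h, with overlapping groups and changes of −0.12 ± 0.07 at 24 h and 0.03 ± 0.07 at 48 h.

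Within eIF3, whose subunits share 1 complex, some were lower and others not called. Of 14 tested, 9 were lower at 24 h and 10 at 48 h, and the others were not called. Eif3l, a peripheral subunit, was lowest at 48 h with 191, 208 and 200 CPM against 335, 328 and 343 at 0 h, a change of −0.75 ± 0.05. Eif3e (−0.65 ± 0.05), Eif3i (−0.56 ± 0.06), Eif3c (−0.53 ± 0.07) and Eif3b (−0.48 ± 0.07) followed at 48 h, and the largest subunit, Eif3a, changed by −0.27 ± 0.06. Eif3h had 402, 436 and 430 CPM at 48 h against 364, 368 and 405 at 0 h, a change of 0.16 ± 0.06 that was not called (edgeR, adjusted p = 0.0541) but passed without 0 h replicate 3 or 48 h replicate 1. Eif3k (0.06 ± 0.07) and Eif3m (0.05 ± 0.05) were not called either. Of Eif3j1 and Eif3j2, near-identical copies whose reads may be divided uncertainly, Eif3j2 was lower at 48 h (−0.39 ± 0.06) and Eif3j1 was not called.

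Cap-binding and helicase genes fell with few exceptions: 9 of 11 tested were lower at 24 h and 10 of 11 at 48 h. Eif4e, the cap-binding protein, had 155, 181 and 170 CPM at 24 h and 147, 156 and 160 at 48 h, against 237, 243 and 238 at 0 h, changes of −0.50 ± 0.06 and −0.63 ± 0.06. Eif4a1, the helicase, changed by −0.51 ± 0.06 and −0.64 ± 0.06, and Eif4g1, the main scaffold, by −0.45 ± 0.09 and −0.46 ± 0.09. None of these groups overlapped with 0 h. Eif4a1 and Eif4a2 are close copies and the split of their reads is uncertain, but Eif4a2 was lower too (−0.25 ± 0.07 and −0.44 ± 0.07). Eif4a3, a helicase of the exon junction complex rather than of eIF4F, changed by −0.58 ± 0.05 and −0.68 ± 0.05, Eif4h, which assists the helicase, by −0.36 ± 0.05 and −0.45 ± 0.05, and Eif4b, with the same role, by −0.37 ± 0.06 and −0.34 ± 0.06.

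Of 4 genes tested that inhibit or transport eIF4E, 2 were lower at 24 h and at 48 h, Eif4ebp1 and Eif4ebp2. Eif4ebp1, a 4E-binding protein controlled by mTOR, had 65.9, 64.2 and 56.6 CPM at 48 h against 84.6, 111 and 99.9 at 0 h, and changed by −0.40 ± 0.09 at 24 h and −0.66 ± 0.10 at 48 h. Eif4ebp2 changed by −0.57 ± 0.08 and −0.60 ± 0.08. Eif4ebp3 had between 0.670 and 2.45 CPM in the libraries of 0, 24 and 48 h and was not called. Eif4enif1, which carries eIF4E into the nucleus, had 134, 152 and 136 CPM at 48 h against 153, 142 and 152 at 0 h and was not called at 24 h (−0.15 ± 0.07) or 48 h (−0.09 ± 0.07). Eif5a, a hypusine-bearing factor that relieves stalled ribosomes, changed by −0.38 ± 0.06 and −0.50 ± 0.06 and Eif6, which keeps the ribosomal subunits apart, by −0.32 ± 0.06 and −0.53 ± 0.06. Eif5a2, a second eIF5A gene, was higher at 48 h (0.24 ± 0.08), with 64.1, 63.5 and 66.3 CPM against 48.9, 59.0 and 56.1 at 0 h. That call was lost without 0 h replicate 1 or 48 h replicate 3, and reads shared by both eIF5A genes may be divided uncertainly.

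**Figure D4:**
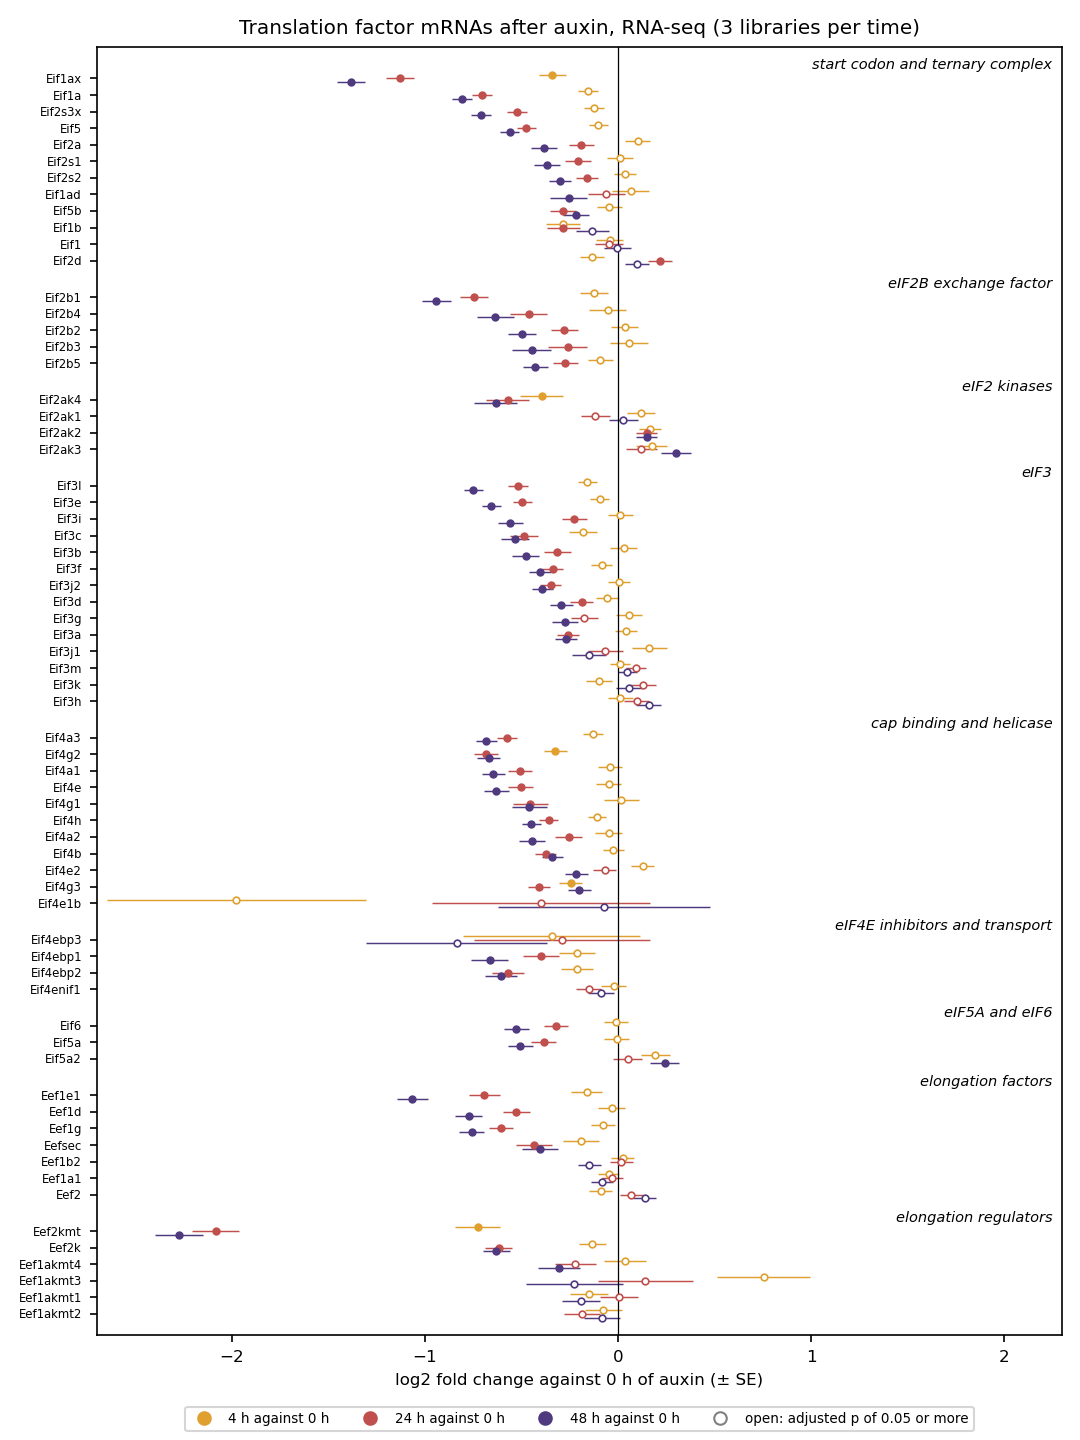
Log2 fold change against 0 h (horizontal axis, ± SE) of 66 translation factors at 4, 24 and 48 h of auxin in RNA-seq, 3 libraries per time, ordered within each role by the 48 h value; filled points passed the threshold and the numbered Eif1ad copies are not drawn. Nearly all filled points of 24 and 48 h lie left of 0, the eIF2B subunits all do, and Eef2kmt is farthest left at −2.27.

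Of 7 genes tested from the list of elongation factors, 4 were lower at 24 h and 4 at 48 h, and the others were not called. The lower ones include Eef1e1, which has another role, given below. Eef1a1, which carries aminoacyl tRNA, had 8870, 9396 and 8949 CPM at 48 h against 9293, 9307 and 10213 at 0 h, and was not called at 24 h (−0.03 ± 0.06) or 48 h (−0.08 ± 0.06). Eef2, which drives translocation, had 3916, 4298 and 3791 CPM at 48 h against 3453, 3748 and 3708 at 0 h and was not called either (0.07 ± 0.06 and 0.14 ± 0.06). The 48 h libraries of Eef2 all lay above those of 0 h, and those of Eef1a1 overlapped with them. Eef2 was called higher at 48 h when 48 h replicate 3 was left out. Of the eEF1B exchange subunits, Eef1g was lower with 768, 896 and 811 CPM at 48 h against 1380, 1328 and 1477 at 0 h, changes of −0.60 ± 0.06 and −0.76 ± 0.06. Eef1d changed by −0.53 ± 0.07 and −0.77 ± 0.07, while Eef1b2 was not called (0.02 ± 0.06 and −0.15 ± 0.06) unless 0 h replicate 2 or 48 h replicate 2 was left out, when it was called lower at 48 h.

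Eef1e1, despite its name a scaffold protein of the complex of aminoacyl tRNA synthetases, had 36.7, 35.3 and 33.8 CPM at 48 h against 68.7, 70.3 and 82.3 at 0 h, changes of −0.69 ± 0.08 and −1.07 ± 0.08. It was also lower at 48 h than at 24 h (−0.37 ± 0.08), a call that ended without 24 h replicate 2 or 48 h replicate 3. Eefsec, which delivers selenocysteine tRNA, changed by −0.44 ± 0.09 and −0.40 ± 0.09. Eef2k, the kinase that switches eEF2 off by phosphorylation, had 58.8, 61.4 and 61.6 CPM at 48 h against 92.6, 95.3 and 93.5 at 0 h, changes of −0.62 ± 0.07 and −0.63 ± 0.07. So the mRNAs of the kinase and of the lysine methyltransferase of eEF2 were lower at 24 h and 48 h, while the mRNA of eEF2 itself was not called.

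A group of numbered Eif1ad genes went the other way from a level near 0. The time series listed 17 of these copies, Eif1ad2 to Eif1ad19, of which 6 were tested and 5 were higher at both 24 h and 48 h. They make up 5 of the 7 members higher at 24 h and 5 of the 8 higher at 48 h. Without the 6 tested copies, 2 of 66 members were higher and 43 lower at 24 h, 3 were higher and 46 lower at 48 h, and the medians were −0.29 and −0.40. Their role is not described in the sources used here. The 5 copies that were called passed the filter through the late groups in which they are high. This does not hold for Eif1ad19, which had 12, 17 and 12 counts at 0 h and 10, 7 and 6 at 24 h.

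Summed over the 17 copies, the estimated counts were 16, 21 and 37 at 4 h, 63, 156 and 146 at 24 h and 190, 281 and 283 at 48 h, against 12, 28 and 20 at 0 h. Most of the 0 h counts were from Eif1ad19, which was not called at any time. Eif1ad3 had 30, 40 and 27 counts at 24 h and 58, 58 and 75 at 48 h against 0 in all 3 libraries of 0 h. Against a floor of 3 counts per library its mean CPM was at least 9.91-fold higher at 24 h and at least 19.5-fold higher at 48 h. Eif1ad14, also at 0 in all 0 h libraries, had 2, 14 and 8 counts at 24 h and 16, 15 and 20 at 48 h. Its mean CPM was 2.45-fold and 5.20-fold that floor, but 24 h replicate 1 lay below the floor. Eif1ad7 had 8, 36 and 64 counts at 24 h and 68, 118 and 106 at 48 h against 0, 6 and 3 at 0 h. Eif1ad10 had the weakest calls: leaving out 0 h replicate 1 or 2 ended them at both times, as did 24 h replicate 2 or 3 at 24 h and 48 h replicate 3 at 48 h. How the counts divide among near-identical copies is uncertain.

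**Figure D5:**
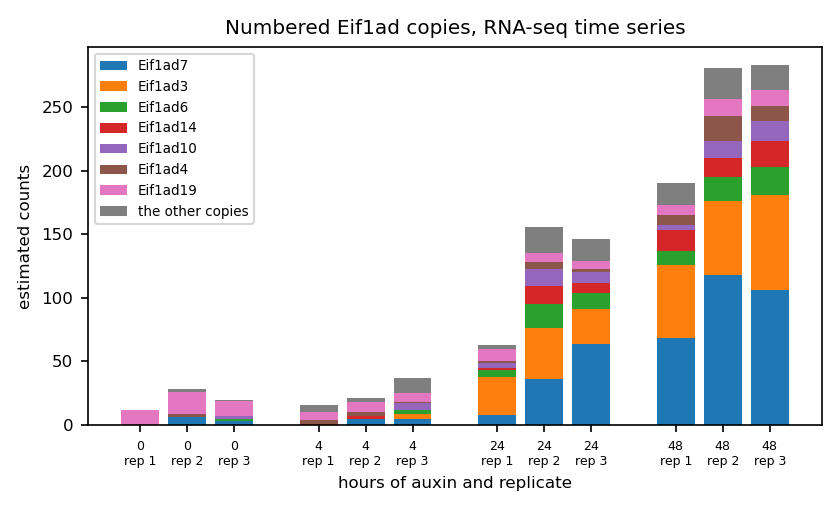
Estimated RNA-seq counts (vertical axis) of the 17 numbered Eif1ad copies in each library of the time series (horizontal axis, hours of auxin and replicate), stacked by copy. The sums are 12 to 28 at 0 h and 16 to 37 at 4 h, then 63 to 156 at 24 h and 190 to 283 at 48 h, mostly Eif1ad7 and Eif1ad3.

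Of a mixed list of 60 other genes related to translation, 58 were tested in the time series. Besides translation factors the list holds signalling and stress genes such as Mtor, Tsc1 and Atf4, and mitochondrial factors such as Tufm. At 24 h 12 were higher (20.7%) and 26 lower (44.8%), against 21.5% and 21.5% of all genes. At 48 h 12 were higher (20.7%) and 25 lower (43.1%), against 24.9% and 24.6%. At 4 h 2 were higher (3.45%) and 3 lower (5.17%), against 3.14% and 4.14%. Their medians were −0.15 at 24 h, −0.20 at 48 h and −0.00 at 4 h. In TT-seq 0 of 56 tested were higher and 4 lower (7.14%), against 2.11% and 7.09% of all genes. Dph1, which starts the diphthamide modification of eEF2, changed by −1.41 ± 0.12 at 24 h, −1.67 ± 0.13 at 48 h and −1.03 ± 0.16 in TT-seq. Hbs1l, which with Pelo rescues stalled ribosomes, changed by −1.02 ± 0.06, −1.06 ± 0.06 and −0.44 ± 0.08, and the release factor gene Etf1 by −0.68 ± 0.06, −0.79 ± 0.06 and −0.51 ± 0.10. Atf4, the transcription factor whose translation rises when eIF2 is phosphorylated, was lower at 4 h (−0.48 ± 0.10), at 48 h (−1.19 ± 0.10) and in TT-seq (−0.97 ± 0.25). The 24 h value of Atf4 is not reported here. Of these 4 TT-seq calls that of Dph1 held with every single library left out. The other 3 ended without auxin replicate 3 or untreated replicate 3, those of Atf4 and Etf1 also without untreated replicate 1, and that of Atf4 also without auxin replicate 2. The genes that rose included Dohh, the last enzyme of hypusine synthesis on eIF5A (0.40 ± 0.07 at 24 h), Tsc1, a restraint on mTOR (0.40 ± 0.07 at 24 h and 0.66 ± 0.07 at 48 h), and Paip2, which holds back the poly(A)-binding protein (0.46 ± 0.07 at 24 h). The highest log2 fold change in the list was 0.63 at 24 h and 1.00 at 48 h.

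The promoters of the members were searched for the letters that YY1 is known to bind, because so many members moved together. RefSeq promoter sequences of the build GRCm38.p6, covering 250 bases before to 50 bases after a gene's start, were matched to 57 of the 97 symbols. AANATGGC, on either strand, was found in 11 of the 57 (19.3%), against 6.96% of 27025 genes with an entry and 10.9% of the 9432 of those that were tested in the time series. AAGATGGCG, a narrower form whose matches are also matches of AANATGGC, was found in 3 members (5.26%), against 1.64% of all genes and 3.81% of tested genes. The short core ATGGCG, added after the data were seen and contained in AAGATGGCG, was found in 13 members (22.8%), against 10.2% and 18.6%. Of the 51 members tested in the time series, 19.6% held AANATGGC, 3.92% AAGATGGCG and 23.5% ATGGCG. The matching shares of tested genes were 10.9%, 3.81% and 18.6%, so the share with AAGATGGCG was near its background. Such letters can also be a start codon and its surroundings, which was not looked up. Of the 10 members with AANATGGC that were tested in the time series, 9 were lower at 24 h, with a median log2 fold change of −0.44, and of the 41 without it 24 were lower, with a median of −0.25. For ATGGCG, 8 of 12 with it and 25 of 39 without it were lower at 24 h, with medians of −0.47 and −0.26. Of all genes tested 21.5% were lower at 24 h. That share was not split by these letters, so the splits of members have no background to be read against. A part of the motif in the falls was not tested. The 30 bases around a match follow for members described above, 5′ to 3′ on the strand of the gene with the motif in capitals, which stand as the reverse complement where the match is on the other strand.
Eef1e1, chr13:38658979-38659008, minus strand: gagctgggccagAAGATGGCggcggccgcg
Eif4e, chr3:138527283-138527312, plus strand: cagatcgatctAAGATGGCgactgtggaac
Eif2s3x, chrX:94212618-94212647, minus strand: tctctccgagcAAGATGGCtgggggtgagg
Eif4a1, chr11:69672571-69672600, minus strand: tgctgggttccAAGATGGCtgccccgccgc
Eif2b4, chr5:31193295-31193324, minus strand: cagcccagctcGCCATTTTggtgggcctga
Eef1b2, chr1:63176654-63176683, plus strand: gccgctaagtcAATATGGCggccacggcaa
The 5 first are from members that were lower at 24 h and 48 h, and Eef1b2 is the 1 of the 10 that was not called at 24 h. The 2 members that fell furthest, Eef2kmt and Eif1ax, held only the short core ATGGCG.
Eef2kmt, chr16:5255919-5255948, minus strand: ccctgccccgcgATGGCGcctgaggaccac
Eif1ax, chrX:159372193-159372222, plus strand: ccgctgccgcgaCGCCATttgccactgccg
A match is a run of letters and no measure of binding, and no position of YY1 was compared with these sequences because the deposited peaks are on the build mm9.

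Before auxin no member was called between the lines in fits without a replicate term. Of 62 members tested, 0 were called in the YY1-AID subline against parental cells, 0 in subline3 against parental cells and 0 in subline3 against the YY1-AID subline, by edgeR and by DESeq2. With edgeR the share of all genes called was 0% in each direction for both lines against parental cells, and for subline3 against the YY1-AID subline it was 0.0826% higher and 0% lower. With DESeq2 it was 0.56% higher and 1.22% lower in the YY1-AID subline than in parental cells, 0.9% and 0.514% in subline3 than in parental cells, and 1.53% and 0.376% in subline3 than in the YY1-AID subline. At an unadjusted p of edgeR under 0.05 there were 1, 0 and 1 members, and 557, 534 and 572 of all 10892 genes. The medians of the members were 0.07, −0.07 and −0.13, and their log2 fold changes lay between −0.51 and 0.63 over the 3 comparisons.

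Eif1ax had the smallest unadjusted p among members in both comparisons that include the YY1-AID subline. It had 149.5 and 136 CPM in the YY1-AID subline, against 195 and 192 CPM in parental cells, a log2 fold change of −0.44 ± 0.16 (edgeR, adjusted p = 0.827). Subline3 had 203 and 198 CPM, a change of 0.49 ± 0.16 against the YY1-AID subline (edgeR, adjusted p = 0.691). So among these untreated libraries those of the YY1-AID subline were lower, without overlap. The difference did not pass the test in this fit, which has no replicate term. The 0 h libraries of the auxin series, normalised separately, had 202, 216 and 224 CPM of Eif1ax, so the low level was not seen there. With the replicate number as a block 1 member, Eif1ax, was lower in the YY1-AID subline than in parental cells (edgeR, adjusted p = 0.0339), where 1.63% of all genes were higher and 2.4% lower. In subline3 Eif1ax was then higher (edgeR, adjusted p = 0.0175) and Eif1ad lower than in the YY1-AID subline, where 4.43% of all genes were higher and 1.74% lower. Eif2ak1 and Eif5a2 were higher in subline3 than in parental cells, where 4.2% of all genes were higher and 2.05% lower. With 2 libraries per line it is not established that the numbers pair them. Eif2c1, Eif2c2, Eif2c3 and Eif2c4 in this table are older symbols of Argonaute genes, which act in gene silencing, and entered by their names alone.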

How the data were processed

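RNA-seq (18 libraries) and TT-seq (6 libraries) were analysed; peaks, loops and domains were not used. The deposited RNA-seq tables hold expected counts for each gene symbol, given in whole numbers. For them the submitters' processing notes name Salmon 0.13.1, DESeq2 and the build mm9. The TT-seq tables deposited by the authors hold raw counts for mouse genes and for a Drosophila spike-in. The submitters' processing notes list Trim Galore 0.6.10, STAR and SAMtools for these, on mm9 and dm6, and the summary lines in the counts are those of HTSeq. No source used here states whether strand was used in counting. Lines naming no gene were left out (reads without a feature were 17.2% to 22.2% of a TT-seq library).

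Each table was fitted whole with edgeR 4.0.16 in R 4.3.3 (TMM, filterByExpr with a minimum count of 10, quasi-likelihood F-tests, all groups of a table in 1 fit, no replicate term), with Benjamini-Hochberg adjustment and a threshold of 0.05. Alternatives were DESeq2 1.42.0, its size factors in edgeR, no filter, the replicate number as a block, fits on the groups compared alone, leaving out libraries and spike-in scaling. The scripts were tested on simulated data. Replicate numbers paired the TT-seq libraries by the correlations given above, a pairing that comes from the data; in the time series same-numbered libraries correlated at −0.0686 to 0.103, so those numbers were not taken as pairs. The members, role lists, marker lists and the 60 related genes were chosen with earlier results of these data known. Genes named are members called in TT-seq or at 4 h, all members called at 24 h or 48 h that a role group turns on (the rule written for this asked for the 10 largest in each direction), the eIF2 subunits and kinases, 4E-binding proteins, eIF4F core, Eif5a, Eef1a1, Eef2 and Eef2k, the smallest p in each comparison of lines, and up to 4 related genes in each direction; Eif1, Eef1b2, Eif3h, Eif3k, Eif3m and Eef1akmt3 and the 24 h and 48 h values beyond the rule were added after their values were seen.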

Additional observations from a re-analysis of the deposited data

Results flagged for a closer look

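The change between consecutive times was tested directly and differed from 0 for many members between 4 h and 24 h of auxin. In RNA-seq 41 of 72 members were lower at 24 h than at 4 h and 6 were higher (edgeR, quasi-likelihood test with Benjamini-Hochberg adjustment). Of all genes 17.7% were lower and 15.9% higher. Between 24 h and 48 h 4 members were lower, against 2.84% of all genes. Eef1e1 had a log2 fold change of −0.37 at 48 h against 24 h, Eif2s3x −0.19, Eif3i −0.33 and Eif3l −0.23. For each of the 4 every 48 h library lay below every 24 h library. They were picked by their calls, so this adds no support, and the share of all genes without overlap is not given here. The number of these falls without 24 h replicate 2 or without 48 h replicate 1 was 1, and without 48 h replicate 3 it was 2. Of all genes 1.27%, 0.996% and 1.70% were lower in those runs.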

How the results depend on the processing

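At 24 h 50 members and at 48 h 54 members were called, and all kept their direction under each alternative run, 42 to 50 and 49 to 54 of them with their call. At 4 h DESeq2 called 9 members lower, and leaving out a library 3 to 4. Leaving out a library gave 4 to 7 higher at 24 h (17.8% to 19.3%) and 5 to 8 at 48 h (21.4% to 23.3%). At 48 h against 24 h, DESeq2 gave 8 lower and 1 higher, the replicate block 8 and 1, no filter on low counts 1 higher, the fit on those groups alone 1 lower, and leaving out a library 1 to 5 lower and 0 to 1 higher. In TT-seq DESeq2 called 6 lower (8.99%), and the replicate block 30 lower and 5 higher (25.3% and 22.7%). Spike-in library sizes gave 0 lower (0%), and spike-in with the replicate block 22 lower and 1 higher (21.5% and 10.1%). Leaving out a library gave 1 to 4 lower (3.34% to 6.28%). Over all genes spike-in with the block gave 1128 higher and 2411 lower, against 2541 and 2833 with the block alone. In the untreated lines the replicate block called 1 member lower in the YY1-AID subline than in parental cells (2.4%). It called 2 higher in subline3 than in parental cells (4.2%). In subline3 against the YY1-AID subline it called 1 higher and 1 lower (4.43% and 1.74%). Same-numbered libraries of those lines correlated at 0.628 to 0.737, with 2 libraries per group. In the time series the block gave 7 lower at 4 h (5.49%), 44 at 24 h (23.0%) and 47 at 48 h (25.8%).

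Some values that were not called in the fits without a replicate term changed sign when single libraries were left out. Their ranges were −0.606 to 0.14 for Eif4ebp3 at 24 h, −0.0591 to 0.0143 for Eef1a1 at 24 h and −0.438 to 0.15 in TT-seq, −0.0372 to 0.0515 for Eef1b2 at 24 h and −0.0408 to 0.0715 for Eif2ak1 at 48 h. For Eif1 they were −0.127 to 0.0115 at 24 h, −0.0600 to 0.0504 at 48 h and −0.347 to 0.0798 in TT-seq, and at 48 h it was 0.00163 with the replicate block and 0.0103 in the fit on those groups alone. The cause of these changes of sign was not tested. In TT-seq with the pairs, Eef1a1 (−0.12 ± 0.04) and Eif1 (−0.13 ± 0.04) were called lower. Depth limits the Eif1ad copies, Eif4ebp3, Eif4e1b and Eef1akmt3, with few counts per library, and spike-in values rest on 422112 to 757845 spike-in counts per library.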
